A study of Mus musculus with 38 samples.

Results

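The transcripts described here are those of 9 genes of liver glycogen metabolism: 5 enzymes or enzyme subunits (Gys2, Gbe1, Ugp2, Pygl and Phka2) and 4 targeting subunits of protein phosphatase 1 (Ppp1r3b, Ppp1r3c, Ppp1r3d and Ppp1r3g). They were chosen by symbol, and 9 of 9 were found among the 21954 genes of the count table. All 9 were among the 13786 genes that entered the tests.

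The liver stores glucose as glycogen after a meal and releases it between meals. UDP-glucose made by UDP-glucose pyrophosphorylase (Ugp2) is added to the chain by liver glycogen synthase (Gys2), and the branching enzyme (Gbe1) makes the branches, while liver glycogen phosphorylase (Pygl) removes glucose units after phosphorylase kinase, whose liver alpha subunit is Phka2, has activated it. Each Ppp1r3 subunit carries protein phosphatase 1 to the glycogen particle, where the phosphatase activates the synthase and turns phosphorylase off.

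All libraries came from livers of wild-type female C57BL/6 mice. Calorie-restricted mice that missed a meal (CRmm) and calorie-restricted mice that were fed (CRfed) gave 3 libraries each, both at zeitgeber time 18. From calorie-restricted mice (CR), the 0 h group held 2 libraries, the 6 h and 14 h groups 3 each and the 22 h group 4. Fasted mice (F) gave 3 libraries at each of 6, 14 and 22 h. Among mice fed ad libitum (AL), the 6 h group held 2 libraries and the 0, 14 and 22 h groups 3 each. No label gives the event that starts the hours. Nor do they call the replicates separate animals, so p-values measure the spread between these samples. The labelled ages run from 5 to 44 months in the order of the samples, so that no age is shared between groups. Taken at face value, these ages and the groups cannot be told apart. Libraries are named by group, time and replicate, such as AL_22h 2.

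Totals lay between 17131292 and 30152277 expected counts per library. All 7 hepatocyte markers in the table were detected in every group, at a summed level of 70893 to 162380 CPM. Some libraries stood apart from their labels. In 14 of the 38 libraries the clock genes were nearer to another group than to their own. Among these were all AL libraries at 0, 6 and 22 h, all 3 CRfed libraries and CR_22h 4. For some, that group was another diet at the same labelled hour: CR_6h for AL_6h 1 and 2, and AL_6h for CR_6h 2 and 3. It was also CR_22h for AL_22h 1 and 3, and F_22h for CR_22h 4. AL_22h 2 and AL_0h 2 were the farthest from their own group (root mean square log2 distance 3.727 and 2.399, against at most 1.979 in the other 36). They are called the 2 libraries of a deviant clock. The 1.979 was that of AL_22h 1, measured against a group mean that held AL_22h 2. CR_6h 3, CR_14h 3, CR_22h 3 and AL_0h 3 correlated better with another diet than with their own, by over 0.15 in mean r. Results that rest on the 2 libraries or on these 4 are given with and without them. In whole liver, fewer cells of a type and less RNA per cell cannot be told apart.

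Per unit of transcript length, the 9 genes spanned a wide range of levels. On the scale of rescaled TPM, Ugp2 averaged 218 ± 56.6 and Pygl 187 ± 59.5 over all libraries (SD, n = 38). Ppp1r3b averaged 110 ± 66.2 (SD, n = 38) and was the most abundant targeting subunit, followed by Ppp1r3c at 42.8 ± 31.6 (SD, n = 38). Gys2 averaged 84.8 ± 39.6 and Gbe1 60.7 ± 21.3 (SD, n = 38). Phka2 averaged 7.74 ± 2.26 (SD, n = 38). Ppp1r3g had a similar mean of 7.86 but single libraries from 0 to 80.6, and Ppp1r3d averaged 0.137. Along the order of the 13 group means, most neighbours overlapped. Of 12 neighbouring pairs, the libraries of 2 pairs did not overlap for Ppp1r3b, 2 for Ppp1r3g, 1 for Gbe1 and 1 for Pygl, and 0 for the other 5 genes.

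Ppp1r3g, a targeting subunit known in mouse liver for its rise in fasting, had the widest range of the 9 genes. It lies on chromosome 13 of GRCm38 (35958839 to 35970388, plus strand). CRmm libraries 1 to 3 held 20.7, 20.1 and 40.5 CPM of Ppp1r3g, against 0.359, 0.515 and 0.410 CPM in CRfed libraries 1 to 3. Every library after the missed meal was above every fed one. In CR livers, Ppp1r3g had 2.19 and 1.59 CPM at 0 h, 0.760, 1.23 and 0.0854 CPM at 6 h, 2.12, 1.31 and 1.52 CPM at 14 h, and 9.48, 13.3, 20.3 and 121 CPM at 22 h. The 4 CR libraries at 22 h were above all other CR libraries at 0, 6 and 14 h, and CR_22h 4 was far above the others.

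Fasted livers had 8.88, 14.8 and 6.49 CPM of Ppp1r3g at 6 h, 99.0, 4.66 and 6.94 CPM at 14 h, and 32.0, 12.5 and 0.765 CPM at 22 h. In AL livers, Ppp1r3g had 0.374, 0.656 and 0.263 CPM at 0 h, 0.0858 and 0.446 CPM at 6 h, 0, 0.427 and 0.218 CPM at 14 h, and 0.127, 0 and 0.0892 CPM at 22 h. No AL library reached the lowest fasted value. The AL values rest on few reads: 33 counts over the 0 h group, 14 at 6 h, 13 at 14 h and 5 at 22 h, so fitted fold changes against AL depend on the prior count of the fit.

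By edgeR's quasi-likelihood test with Benjamini-Hochberg adjustment over all tested genes, Ppp1r3g was higher in F than AL livers by 7.34 ± 1.33 (log2) at 14 h (adjusted p = 0.000269) and by 7.58 ± 1.49 at 22 h (adjusted p = 0.00155). At 6 h the difference of 5.16 ± 1.46 had an adjusted p of 0.0535. Without F_14h 1, the library at 99.0 CPM, the 14 h difference was 4.68 (adjusted p = 0.00763). Without F_22h 1 the 22 h difference was 6.38 (adjusted p = 0.0159), and leaving out AL_14h 2 or AL_22h 1 gave 8.34 at 14 h and 8.24 at 22 h. By limma on log2 rescaled TPM plus a pseudocount of 1 or 0.1, the differences were smaller, at 3.32 and 5.54 at 14 h and at 2.69 and 5.07 at 22 h, and the calls held.

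CR livers at 22 h also exceeded AL livers in Ppp1r3g, by 9.03 ± 1.48 (adjusted p = 0.000731), and by 7.54 without CR_22h 4 (adjusted p = 0.00236). Without AL_22h 1 it was 9.71, with the replicate block 7.74, and by limma with a pseudocount of 1 or 0.1 it was 4.01 and 6.79. At 0, 6 and 14 h the CR over AL differences were 2.11, 1.28 and 2.86, with adjusted p of 0.611, 0.994 and 0.517. Although not called, every CR library lay above every AL library at 0 and 14 h, while the libraries overlapped at 6 h.

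Against fasted livers, CR livers had less Ppp1r3g at 6 h (-3.88 ± 1.12, adjusted p = 0.0296) and at 14 h (-4.48 ± 1.05, adjusted p = 0.00383), and at 22 h the difference was 1.45 ± 0.86 (adjusted p = 0.302). The test of whether this CR over F difference changed across the 3 times gave an adjusted p of 0.0212. The 14 h value rested on F_14h 1, without which it was -1.81 (adjusted p = 0.217). The 6 h call was lost without CR_6h 1, CR_6h 2, CR_6h 3, F_6h 1 or F_6h 2 (adjusted p between 0.0531 and 0.111), and was -4.57 without CR_6h 2. By limma with a pseudocount of 1, the 6 h difference was -2.19 (adjusted p = 0.0802) and the 14 h difference -2.47 (adjusted p = 0.0251). F_14h 1 also held the most exocrine pancreas marker counts of all libraries (39.6 CPM over 4 markers), whose part in its Ppp1r3g value was not tested. After the missed meal, Ppp1r3g was higher in CRmm than CRfed livers by 5.97 ± 1.198 (adjusted p = 0.00141), and this call held in every setting tried, with a difference of 3.87 by limma with a pseudocount of 1.

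**Figure D1:**
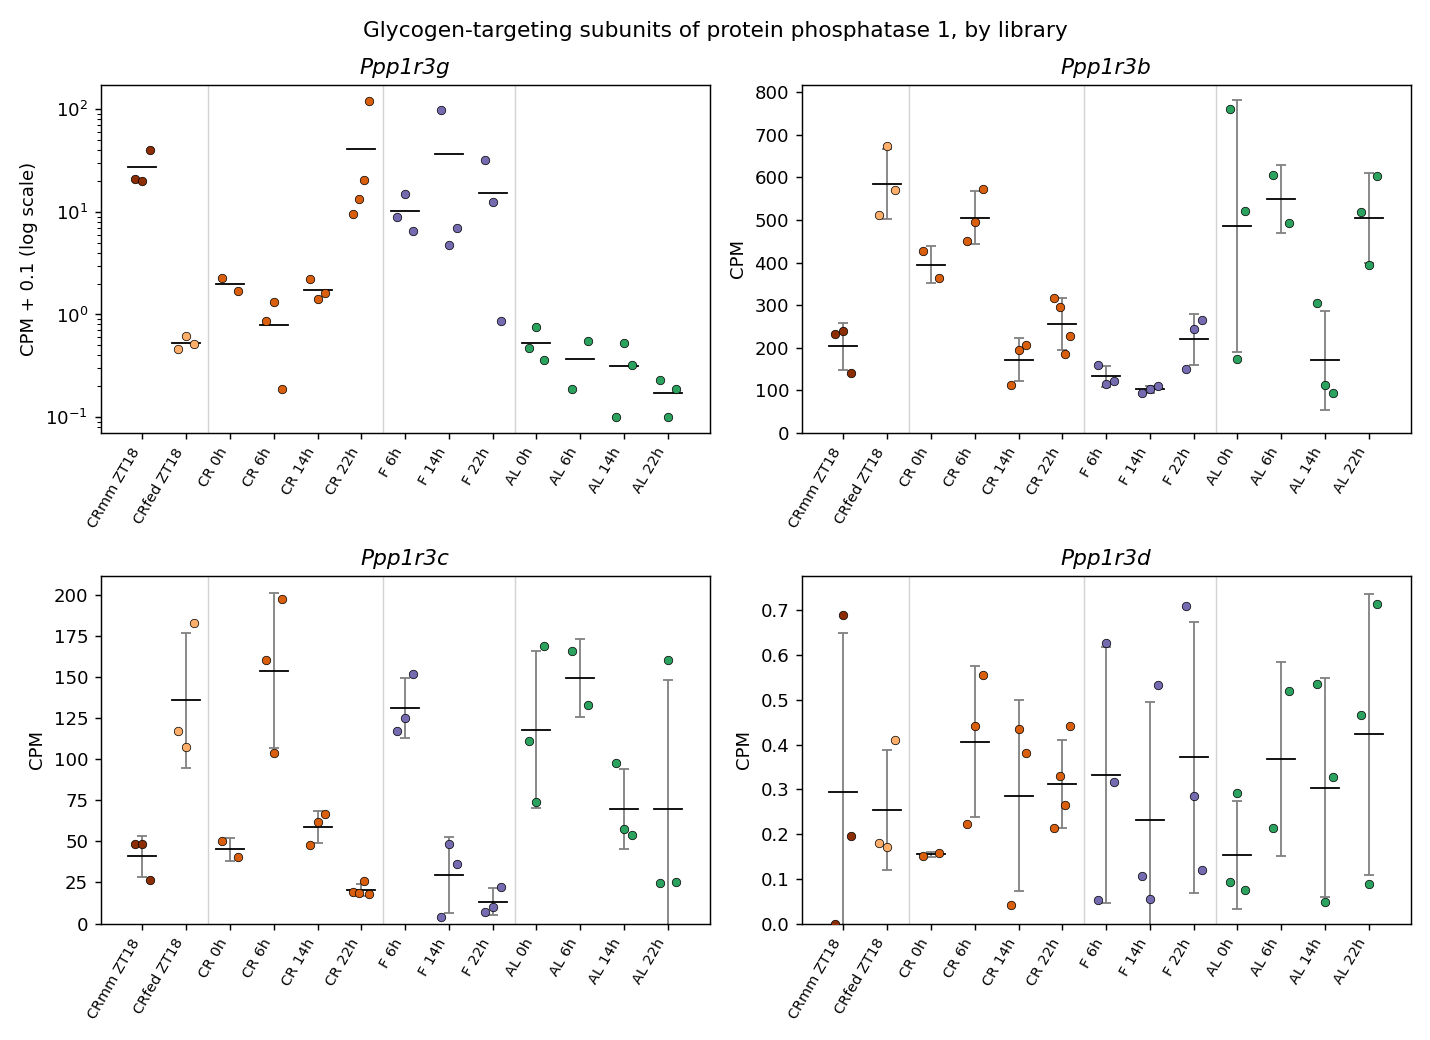
Each point is 1 library and each black line a group mean, with SD bars on the linear panels, in CPM by group; Ppp1r3g is on a log axis after adding 0.1 CPM. Ppp1r3g lay at 20.1 to 40.5 CPM in CRmm and at 0.359 to 0.515 CPM in CRfed livers, while Ppp1r3b lay at 140 to 240 CPM in CRmm and at 512 to 673 CPM in CRfed livers.

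Ppp1r3b encodes the main liver targeting subunit, also called GL, and lies on chromosome 8 (35375739 to 35388139, plus strand). CRmm livers held 231, 240 and 140 CPM of Ppp1r3b, against 512, 673 and 570 CPM in CRfed livers. The groups did not overlap. Ppp1r3b was lower after the missed meal by 1.52 on the log2 scale (-1.52 ± 0.38, adjusted p = 0.00889), and this call was lost without CRmm 3 (-1.31, adjusted p = 0.0687).

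In CR livers, Ppp1r3b had 426 and 365 CPM at 0 h, 450, 495 and 573 CPM at 6 h, 113, 195 and 207 CPM at 14 h, and 316, 295, 184 and 227 CPM at 22 h. Fasted livers had 160, 116 and 122 CPM of Ppp1r3b at 6 h, 92.7, 103 and 110 CPM at 14 h, and 150, 243 and 264 CPM at 22 h. AL livers had 761, 173 and 521 CPM of Ppp1r3b at 0 h, 606 and 492 CPM at 6 h, 305, 112 and 92.6 CPM at 14 h, and 519, 393 and 604 CPM at 22 h. At 6 h all fasted libraries lay below all CR and all AL libraries. AL_0h 2, 1 of the 2 libraries of a deviant clock, held the lowest AL value at 0 h.

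At 6 h, Ppp1r3b was lower in F than in AL livers (-2.05 ± 0.42, adjusted p = 0.00508) and higher in CR than in F livers (1.93 ± 0.39, adjusted p = 0.00200). The F over AL call was lost without AL_6h 1 (-1.88, adjusted p = 0.0829), whereas the CR over F call held in every setting tried. At 22 h, F livers were below AL livers in Ppp1r3b by 1.204 on the log2 scale (-1.204 ± 0.38, adjusted p = 0.0363). This call was lost without AL_22h 1, AL_22h 3, F_22h 1 or F_22h 2 (adjusted p between 0.0823 and 0.178). At 14 h the F over AL difference was -0.74 ± 0.38 (adjusted p = 0.156). At 22 h the CR over AL difference of Ppp1r3b was -0.98 ± 0.35 (adjusted p = 0.0924), although all 4 CR libraries lay below all 3 AL libraries.

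Ppp1r3c encodes a targeting subunit also called PTG and lies on chromosome 19 (36731731 to 36736653, minus strand). It had 48.3, 48.1 and 26.6 CPM in CRmm livers, against 117, 107 and 183 CPM in CRfed livers. The groups did not overlap, and Ppp1r3c was lower after the missed meal (-1.73 ± 0.58, adjusted p = 0.0486). The call was lost when any 1 of the 6 libraries was left out, with adjusted p between 0.0634 and 0.199.

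In CR livers, Ppp1r3c had 50.0 and 40.3 CPM at 0 h, 161, 104 and 198 CPM at 6 h, 48.1, 62.1 and 66.8 CPM at 14 h, and 19.2, 18.8, 26.0 and 18.0 CPM at 22 h. Fasted livers had 117, 125 and 152 CPM of Ppp1r3c at 6 h, 3.90, 48.7 and 36.5 CPM at 14 h, and 7.14, 10.1 and 22.5 CPM at 22 h. In AL livers, Ppp1r3c had 111, 74.0 and 169 CPM at 0 h, 166 and 133 CPM at 6 h, 97.7, 57.5 and 54.2 CPM at 14 h, and 24.4, 160 and 25.3 CPM at 22 h. At 6 h the 3 diets overlapped. AL_22h 2, the other library of a deviant clock, stood far above both other AL libraries at 22 h.

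The calls of Ppp1r3c against AL livers at 22 h rested on that library. F was below AL by 2.40 on the log2 scale (-2.40 ± 0.60, adjusted p = 0.00948), but by 0.90 without AL_22h 2 (-0.90, adjusted p = 0.282). CR was below AL by 1.77 (-1.77 ± 0.54, adjusted p = 0.0496), but by 0.28 without AL_22h 2 (-0.28, adjusted p = 0.825). The F over AL call was also lost without F_22h 1 (adjusted p = 0.0723) or F_22h 2 (0.0549), and without F_22h 3 the difference was -3.01. By limma with a pseudocount of 1, the differences were -1.81 for F and -1.12 for CR, with adjusted p of 0.0300 and 0.202. The CR over AL call was also lost without CR_22h 1, CR_22h 2 or CR_22h 4 (adjusted p between 0.0979 and 0.127). On the compared libraries only, the F over AL and CR over AL calls were both lost (adjusted p = 0.0711 and 0.180).

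The promoters of Ppp1r3c and Ppp1r3g are shown because these 2 genes differed between CRmm and CRfed livers in opposite directions. Both sequences are from RefSeq on GRCm38.p6, run 5′ to 3′ on the gene's strand and cover 250 bases before to 50 after the annotated start. Capitals mark an E-box (CACGTG), a sequence that clock proteins and other helix-loop-helix factors can bind. Ppp1r3c is at chr19:36736555-36736854 (minus strand) and Ppp1r3g at chr13:35967656-35967955 (plus strand).
Ppp1r3c: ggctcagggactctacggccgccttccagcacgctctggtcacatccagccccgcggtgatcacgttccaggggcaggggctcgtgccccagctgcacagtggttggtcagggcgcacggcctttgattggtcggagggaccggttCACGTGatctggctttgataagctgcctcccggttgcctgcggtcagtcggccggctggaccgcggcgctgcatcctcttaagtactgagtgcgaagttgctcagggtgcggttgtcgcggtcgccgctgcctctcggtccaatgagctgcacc
Ppp1r3g: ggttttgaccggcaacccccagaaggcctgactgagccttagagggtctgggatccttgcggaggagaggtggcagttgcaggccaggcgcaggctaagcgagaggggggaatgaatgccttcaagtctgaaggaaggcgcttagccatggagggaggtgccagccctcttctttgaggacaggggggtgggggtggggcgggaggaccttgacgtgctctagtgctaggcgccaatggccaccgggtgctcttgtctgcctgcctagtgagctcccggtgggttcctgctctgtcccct
The E-box of Ppp1r3c begins at base -104 from the start. On both strands of the 8 promoter sequences found for 7 of the 9 genes, the searched motifs were the E-box, a full cyclic AMP response element (TGACGTCA), a FOXO site (GTAAACA), a direct repeat of nuclear receptors (DR1), a D-box (TTATGTAA) and a glucocorticoid response element. The only other match was an E-box at base -226 of Ppp1r3d. Of all 32851 promoters in the table, 7.15% held the E-box, 1.79% the cyclic AMP response element, 3.65% the FOXO site, 0.0396% the direct repeat, 0.938% the D-box and 0.00913% the glucocorticoid element. None of these letters occurred in this window of Ppp1r3g. The window lies inside the gene span given above (35958839 to 35970388) and not at its 5′ end, where no sequence was searched.

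Ppp1r3d encodes a targeting subunit also called R6 and lies on chromosome 2 (178411206 to 178414472, minus strand). Its counts were at most 0.714 CPM in any library, with 7 to 29 counts over a whole group, and group means between 0.153 and 0.423 CPM. None of the 11 pairs of groups passed edgeR's test for Ppp1r3d, with 0 at an unadjusted p under 0.05 and 0 called by DESeq2. The standard errors of its log2 fold changes were 0.88 to 1.14, so differences of this size, and larger ones, could go undetected at this depth.

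Taking the 4 subunits per unit of length, their make-up differed between groups. Ppp1r3g made up 18.2 ± 12.0% of the summed rescaled TPM of the 4 subunits in CRmm livers and 0.101 ± 0.0142% in CRfed livers (SD, n = 3 each). The summed level was 111 ± 16.7 in CRmm and 275 ± 31.9 rescaled TPM in CRfed livers (SD, n = 3 each), with no overlap. At 6 h, Ppp1r3c made up the largest share in fasted livers (58.3 ± 6.58%, SD, n = 3), while Ppp1r3b did in CR livers (67.2 ± 5.96%, SD, n = 3) and AL livers (69.3 ± 0.264%, SD, n = 2). In F_14h 1, Ppp1r3g alone held 66.1% and in CR_22h 4 it held 47.4%. These shares are descriptions and were not tested.

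**Figure D2:**
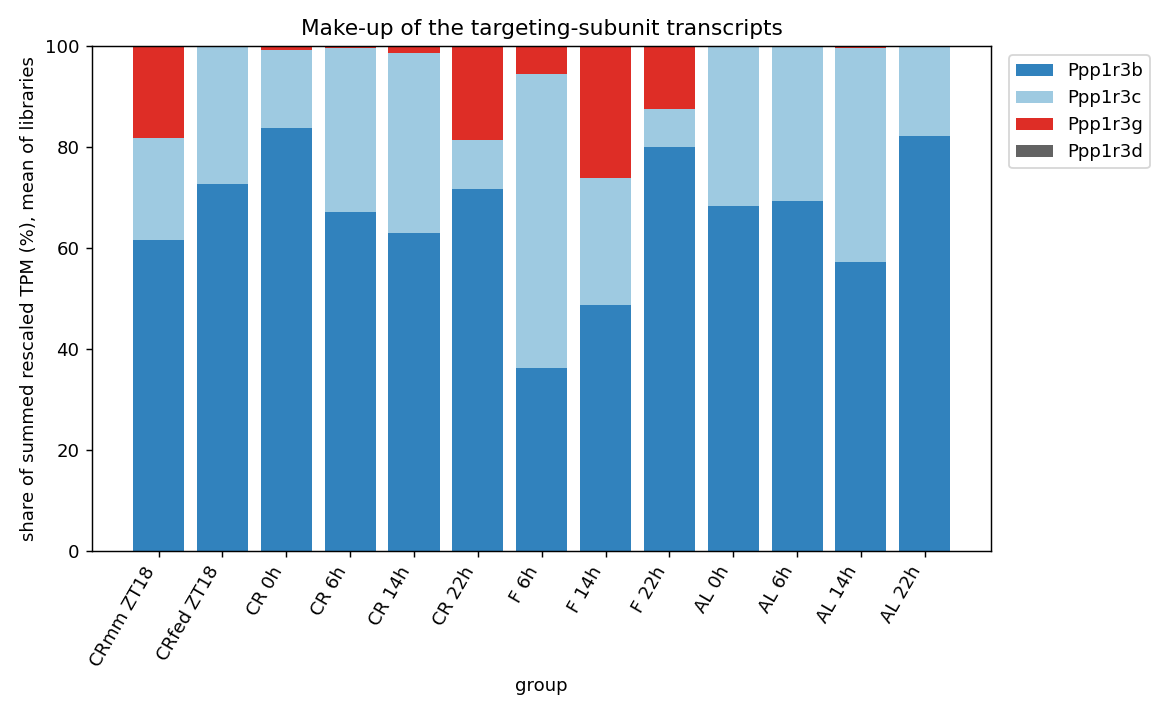
Stacked bars show the mean share (%) of each targeting subunit in the summed rescaled TPM of the 4 subunits, by group. Ppp1r3g (red) made up 18.2% in CRmm and 0.101% in CRfed livers, and Ppp1r3c (light blue) had its highest mean share, 58.3%, in F_6h.

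Among the synthesis enzymes, Ugp2 differed most often between groups. It lies on chromosome 11 (21321138 to 21371201, minus strand), and an exon of Gm12043 overlaps it on the other strand, so that in these non-directional libraries reads of both cannot be told apart. CRmm livers held 280, 328 and 322 CPM of Ugp2, against 423, 371 and 404 CPM in CRfed livers. All CRmm libraries were below all CRfed libraries, but the difference of -0.37 ± 0.18 did not pass the test (adjusted p = 0.181).

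In CR livers, Ugp2 had 362 and 390 CPM at 0 h, 306, 314 and 230 CPM at 6 h, 368, 399 and 313 CPM at 14 h, and 461, 477, 474 and 441 CPM at 22 h. Fasted livers had 325, 309 and 334 CPM of Ugp2 at 6 h, 231, 236 and 210 CPM at 14 h, and 195, 194 and 252 CPM at 22 h. In AL livers, Ugp2 had 317, 412 and 275 CPM at 0 h, 224 and 260 CPM at 6 h, 460, 325 and 527 CPM at 14 h, and 261, 353 and 308 CPM at 22 h. At 14 and 22 h every fasted library was below every CR and every AL library, while at 6 h every fasted library was above both AL libraries.

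Ugp2 was lower in F than AL livers at 14 h (-0.96 ± 0.18, adjusted p = 0.000343) and at 22 h (-0.53 ± 0.18, adjusted p = 0.0486). At 6 h the difference was 0.42 ± 0.20 (adjusted p = 0.332), and the test of a change of the F over AL difference across the 3 times gave an adjusted p of 0.0726. The 14 h call held in every setting tried. The 22 h call was lost without AL_22h 1, AL_22h 2, AL_22h 3, F_22h 1 or F_22h 2 (adjusted p between 0.0617 and 0.195). It was also lost when the length trend was removed (-0.35, adjusted p = 0.223). The same held on the compared libraries only (adjusted p = 0.131), with no filter (0.0860) and with DESeq2 size factors (0.0584).

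CR livers exceeded F livers in Ugp2 at 14 h (0.68 ± 0.18, adjusted p = 0.00825) and at 22 h (1.12 ± 0.17, adjusted p = 9.53e-05). At 6 h the CR over F difference was -0.19 ± 0.18 (adjusted p = 0.599), and this effect differed across the 3 times (adjusted p = 0.00760). The 14 h call was lost on the compared libraries only (adjusted p = 0.0545), and the 22 h call held in every setting tried. CR livers also exceeded AL livers in Ugp2 at 22 h (0.59 ± 0.17, adjusted p = 0.0360). This call was lost without AL_22h 1, AL_22h 3, CR_22h 1 or CR_22h 2 (adjusted p between 0.0644 and 0.164). It was also lost on the compared libraries only (adjusted p = 0.168) and with no filter (0.0604).

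Gys2 lies on chromosome 6 (142422613 to 142473109, minus strand). CRmm livers had 172, 144 and 167 CPM of Gys2 and CRfed livers had 157, 148 and 132 CPM. The groups overlapped (0.14 ± 0.34, adjusted p = 0.843). In CR livers, Gys2 had 204 and 229 CPM at 0 h, 102, 127 and 77.2 CPM at 6 h, 96.3, 95.8 and 73.1 CPM at 14 h, and 241, 220, 256 and 176 CPM at 22 h. All CR libraries at 0 and 22 h lay above all those at 6 and 14 h.

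Fasted livers had 96.7, 130 and 87.3 CPM of Gys2 at 6 h, 241, 130 and 146 CPM at 14 h, and 378, 187 and 132 CPM at 22 h. In AL livers, Gys2 had 126, 86.0 and 112 CPM at 0 h, 76.4 and 60.6 CPM at 6 h, 66.0, 173 and 96.9 CPM at 14 h, and 158, 57.9 and 165 CPM at 22 h. In F livers the 14 h libraries overlapped those of both other times. In AL livers the 14 h and 22 h libraries overlapped those of every other time. Without AL_22h 2, at 57.9 CPM, the AL libraries at 22 h lay at 158 and 165 CPM, above all AL libraries at 0 and 6 h. None of the 11 pairs of groups passed edgeR's test for Gys2, with 4 at an unadjusted p under 0.05 and 1 called by DESeq2. Its smallest adjusted p was 0.0510, for CR against F livers at 14 h (-0.96 ± 0.34), where all CR libraries lay below all fasted ones.

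Gbe1 lies on chromosome 16 (70313949 to 70569716, plus strand). It had 111, 93.2 and 104 CPM in CRmm livers and 175, 158 and 156 CPM in CRfed livers. The groups did not overlap, but the difference of -0.67 ± 0.29 did not pass the unpaired test (adjusted p = 0.126). With the replicate number as a block over all libraries its adjusted p was 0.0604, and 0.00970 with the block on the compared libraries only. The first of these blocks gives each number 1 effect shared by all groups. At 22 h, Gbe1 had 215, 203, 119 and 100 CPM in CR livers, 93.3, 90.0 and 68.7 CPM in F livers and 98.0, 88.5 and 118 CPM in AL livers. Every CR library was above every fasted one, and Gbe1 was higher in CR than F livers (0.92 ± 0.27, adjusted p = 0.0285). Leaving out CR_22h 1, CR_22h 2 or any 1 of the F_22h libraries ended this call (adjusted p between 0.0688 and 0.102). The call was also lost on the compared libraries only (adjusted p = 0.135). In the 9 fasted libraries, Gbe1 stayed between 68.7 and 93.3 CPM.

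Pygl lies on chromosome 12 (70190811 to 70231488, minus strand). It had 336, 255 and 171 CPM in CRmm livers and 457, 411 and 410 CPM in CRfed livers. The groups did not overlap, but the difference of -0.74 ± 0.29 did not pass the unpaired test (adjusted p = 0.0865). It passed with the replicate number as a block over all 38 libraries (-0.78, adjusted p = 0.0142). That block gives each number 1 effect shared by all groups, so it is not a paired test of these groups. With the block on the compared libraries only it passed too (-0.81, adjusted p = 0.0164). In CR livers at 22 h, Pygl had 490, 489, 259 and 178 CPM, against 175, 233 and 159 CPM in F livers and 312, 373 and 339 CPM in AL livers. The CR libraries spread around the AL range and overlapped the fasted ones. Pygl was higher in CR than F livers (0.91 ± 0.27, adjusted p = 0.0328). This call was lost without CR_22h 1, CR_22h 2, F_22h 1 or F_22h 3 (adjusted p between 0.104 and 0.140). It was also lost on the compared libraries only (adjusted p = 0.208) and by limma without a filter (0.0742). F against AL livers at 22 h gave -0.85 ± 0.29 (adjusted p = 0.0510), with all fasted libraries below all AL libraries.

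Phka2 lies on the X chromosome (160502166 to 160598878, plus strand), where an exon of Gm15243 overlaps it on the other strand, so that reads of both cannot be told apart. Its group means ranged between 10.8 ± 0.599 CPM in CRmm (SD, n = 3) and 26.0 ± 2.97 CPM in F_22h livers (SD, n = 3). None of the 11 pairs passed edgeR's test for Phka2, with 1 at an unadjusted p under 0.05 and 0 called by DESeq2.

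The ratio of Gys2 to Pygl, computed from rescaled TPM in each library, was 0.739 ± 0.274 in CRmm and 0.373 ± 0.0146 in CRfed livers (SD, n = 3 each). It ran from 0.556 to 1.05 in CRmm and from 0.358 to 0.386 in CRfed livers, without overlap. In CR livers the ratio was 0.887 to 1.16 at 0 h, 0.187 to 0.276 at 6 h, 0.227 to 0.259 at 14 h and 0.494 to 1.09 at 22 h. In F livers it was 0.283 to 0.332 at 6 h, 0.468 to 1.28 at 14 h and 0.858 to 2.44 at 22 h. In AL livers it was 0.209 to 0.473 at 0 h, 0.137 to 0.160 at 6 h, 0.224 to 0.515 at 14 h and 0.175 to 0.551 at 22 h. Without AL_0h 2 the AL ratios at 0 h were 0.256 and 0.473, and without AL_22h 2 those at 22 h were 0.551 and 0.531. The ratio exceeded 1 in single libraries of CRmm, CR and F livers and in no AL library. With 3 libraries against 3, the exact permutation test cannot give a p below 0.1, and the ratio was not tested.

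**Figure D3:**
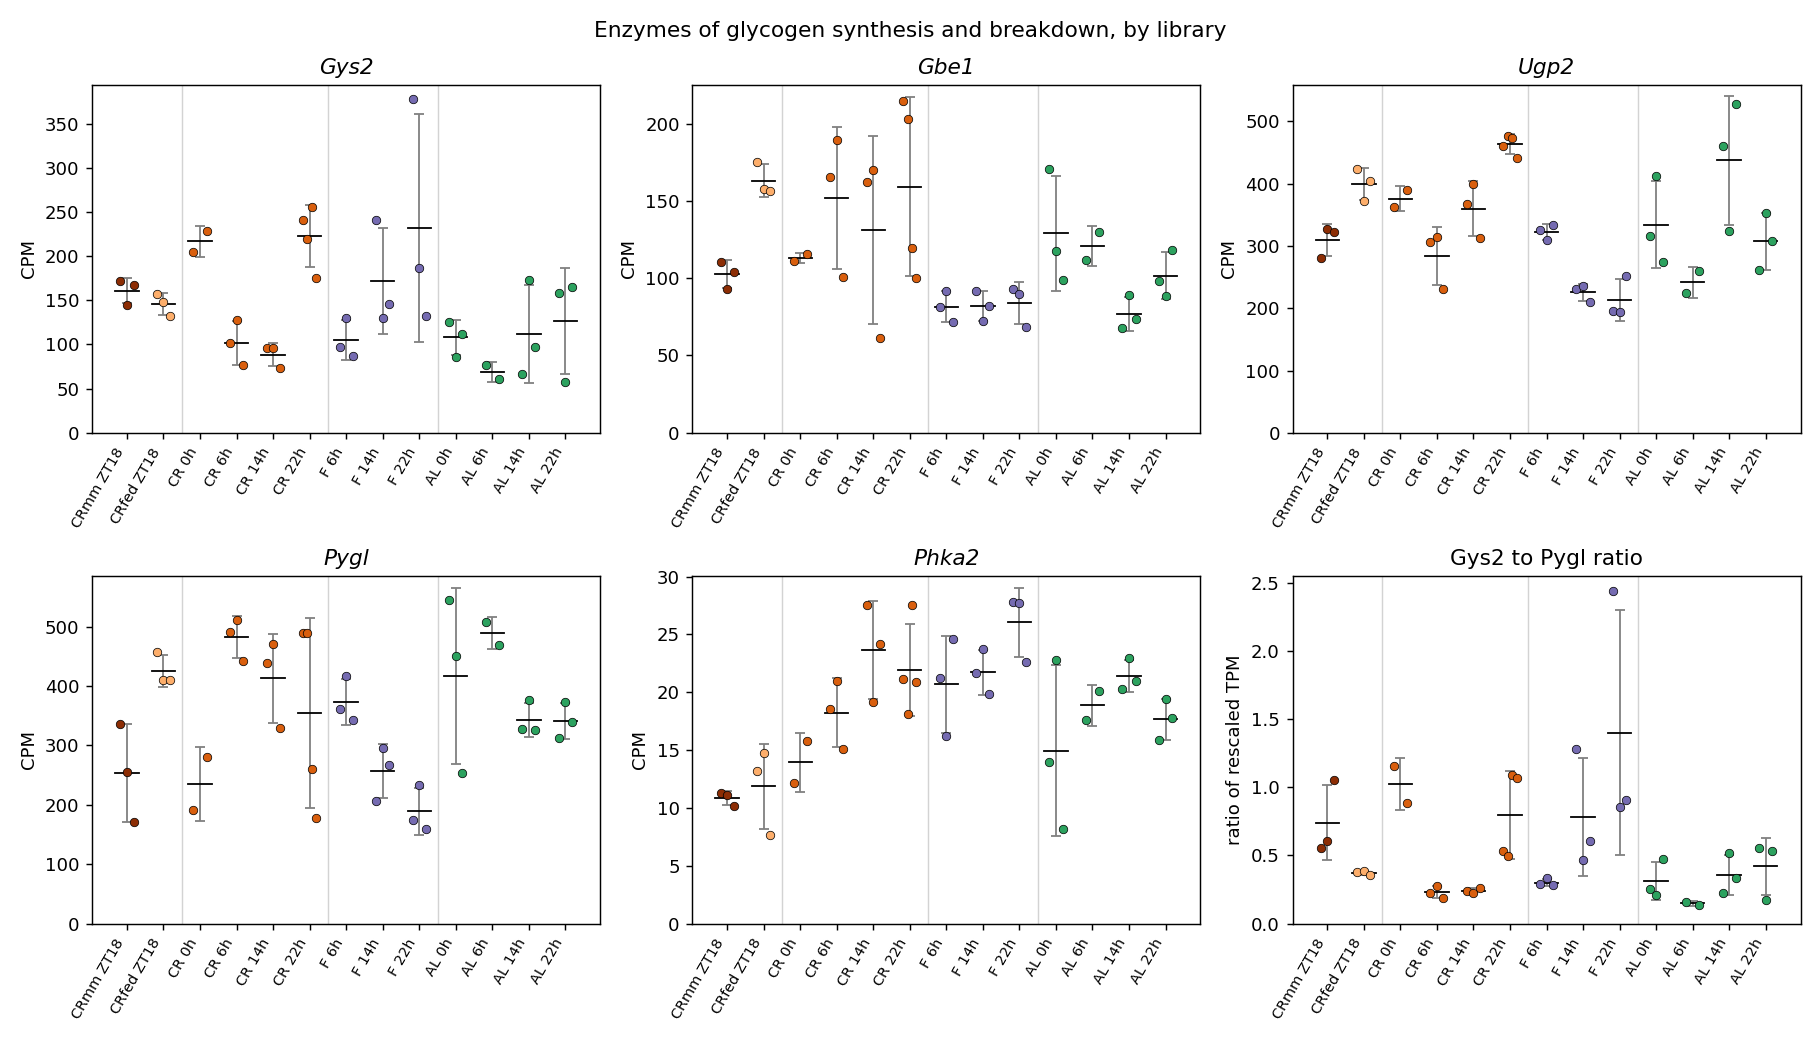
Points are libraries, black lines group means and grey bars SD, in CPM for the 5 enzyme genes; the last panel is the per-library ratio of Gys2 to Pygl in rescaled TPM. Ugp2 in CR_22h lay at 441 to 477 CPM, above the 194 to 252 CPM of F_22h, and the ratio in CRmm lay at 0.556 to 1.05, above 0.358 to 0.386 in CRfed.

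The F over AL comparisons ask what a fast did to these transcripts. Of the 9 genes, 1 was called at 6 h (2.34% of all tested genes were called, 1.2% higher and 1.13% lower), 2 at 14 h (24.5%) and 4 at 22 h (11.5%, of which 6.06% higher and 5.4% lower). Their median log2 fold change was -0.15 at 6 h, -0.36 at 14 h and -0.28 at 22 h, beside -0.02, -0.04 and -0.03 over all tested genes. The called genes were Ppp1r3b at 6 h, Ugp2 and Ppp1r3g at 14 h, and Ugp2, Ppp1r3b, Ppp1r3c and Ppp1r3g at 22 h, of which only Ppp1r3g was higher in F. At 14 h, 2 of 9 is close to the share called over all genes. The libraries did not overlap for 6 of 9 genes at 6 h (37% of all tested genes), 4 at 14 h (38.3%) and 6 at 22 h (34.2%). At 14 h the 7 hepatocyte markers summed to 89671 to 108470 CPM in F and 130150 to 137950 CPM in AL livers, and the 6 endothelial markers to 190 to 227 CPM in F and 54.8 to 129 CPM in AL livers, both without overlap. The rank correlation of a library's log2 deviations with transcript length was 0.334 to 0.375 in F and -0.517 to -0.063 in AL livers at 14 h, and 0.179 to 0.477 in F and -0.427 to -0.07 in AL livers at 22 h. The part of these markers in the results was not tested, and with the length trend removed the call of Ugp2 at 22 h was lost. None of the 9 was called by edgeR for a change of the F over AL difference across times (0.0653% of all tested genes were). There was 1 at an unadjusted p under 0.05 by edgeR and 1 called by DESeq2, Ugp2 in both cases.

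Of 28 other glycogen genes described here, 7 were called at 14 h, 6 higher and 1 lower in F livers, a share close to the 24.5% of all tested genes. Of the 4 genes of glucose supply among them, 3 were called, 2 higher and 1 lower. G6pc, which releases glucose from glucose 6-phosphate, averaged 588 ± 11.8 CPM in F and 133 ± 57.6 CPM in AL livers (SD, n = 3 each), a difference of 2.14 ± 0.47 (adjusted p = 0.00154). Gckr was lower (-1.03 ± 0.26, adjusted p = 0.00442), and Slc37a4, the glucose 6-phosphate transporter, was higher (1.13 ± 0.38, adjusted p = 0.0281). At 22 h, 2 of 28 were called, beside 11.5% of all tested genes: G6pc (2.05 ± 0.47, adjusted p = 0.00514) was higher, and the kinase Akt1 (-0.57 ± 0.14, adjusted p = 0.00962) was lower. At 6 h 0 of 28 were called by edgeR, with 4 at an unadjusted p under 0.05.

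The CR over AL comparisons ask how calorie restriction with its daily meal differed from free feeding. None of the 9 genes was called at 0 h (0.479% of all tested genes were), 6 h (0%) or 14 h (0.0218%, of which 0.00725% higher and 0.0145% lower), by edgeR or by DESeq2. At an unadjusted p under 0.05 there were 3 at 0 h, 0 at 6 h and 2 at 14 h. The share of all tested genes at that threshold is not given here, so these counts show nothing particular to the 9 genes. Without the 4 libraries apart from their diet, Gbe1 was called at 14 h, where 590 genes were called over the whole table, against 3 with them. CR_14h 3 is among these 4 and was left out for correlating better with AL. Leaving it out favours CR over AL calls, so the added calls give no support for a difference. At 22 h, 3 of 9 were called (4.88% of all tested genes, of which 2.57% higher and 2.31% lower): Ugp2 and Ppp1r3g higher and Ppp1r3c lower in CR. The libraries did not overlap for 3 of 9 genes at 0 h (28.1% of all tested genes), 1 at 6 h (16%), 1 at 14 h (9.68%) and 4 at 22 h (15.1%). The F over AL and CR over AL comparisons share their AL libraries. At 22 h, 2 of 28 other glycogen genes were called, beside 4.88% of all tested genes. G6pc averaged 522 ± 304 CPM in CR (SD, n = 4) and 145 ± 29.3 CPM in AL livers (SD, n = 3). The difference was 1.85 ± 0.45 (adjusted p = 0.0162). Its libraries overlapped, at 70.3 to 735 CPM in CR and 126 to 178 CPM in AL livers. Gys1, the muscle-type synthase, was lower (-0.91 ± 0.26, adjusted p = 0.0398).

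The CR over F comparisons ask how livers on a restricted diet differed from livers after a fast at the same labelled hour. At 6 h, 2 of the 9 genes were called (6.8% of all tested genes, of which 3.39% higher and 3.41% lower). At 14 h, 2 were called (17.1%, of which 9.1% higher and 7.97% lower), and at 22 h 3 (9.44%, of which 5.13% higher and 4.32% lower). The 6 h genes were Ppp1r3b, higher in CR, and Ppp1r3g, lower; the 14 h genes were Ugp2, higher, and Ppp1r3g, lower. At 22 h Gbe1, Pygl and Ugp2 were all higher in CR. The median log2 fold change of the 9 genes was 0.23 at 6 h, 0.68 at 14 h and 0.63 at 22 h, beside 0.02, 0.03 and 0.02 over all tested genes. The libraries did not overlap for 4 of 9 genes at 6 h (27.7% of all tested genes), 5 at 14 h (32.4%) and 2 at 22 h (16.8%). These comparisons share their CR libraries with CR over AL and their F libraries with F over AL. The CR over F difference changed across the 3 times for 2 of 9 genes, Ugp2 and Ppp1r3g (2.83% of all tested genes).

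Among the other glycogen genes, G6pc was lower in CR than F livers at 6 h (-1.49 ± 0.46, adjusted p = 0.0441) and 14 h (-2.52 ± 0.48, adjusted p = 0.000562) and its difference at 22 h was -0.20 ± 0.42 (adjusted p = 0.816). Prkaca, a catalytic subunit of protein kinase A, was higher at 6 h (0.70 ± 0.21, adjusted p = 0.0324). Gckr was higher at 14 h (0.72 ± 0.26, adjusted p = 0.0498). Phkb, the beta subunit of phosphorylase kinase, was lower at 14 h (-0.81 ± 0.18, adjusted p = 0.00273) and 22 h (-0.64 ± 0.17, adjusted p = 0.0137). In all, 3 of 28 were called at 6 h, 3 at 14 h and 1 at 22 h, beside 6.8%, 17.1% and 9.44% of all tested genes.

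The CRmm over CRfed comparison asks what missing an expected meal did to calorie-restricted livers. Of the 9 genes, 3 were called (12.5% of all tested genes were, 6.34% higher and 6.13% lower): Ppp1r3b and Ppp1r3c lower and Ppp1r3g higher in CRmm. Their median log2 fold change was -0.37, beside -0.01 over all tested genes. The libraries did not overlap for 6 of 9 genes (34.5% of all tested genes). With the replicate number as a block over all libraries, 3 were called, Pygl in place of Ppp1r3c (adjusted p = 0.0542). With the block on the compared libraries alone, 5 were called, Gbe1 and Pygl joining the first 3. Calls over all tested genes rose too in that setting, from 1719 to 3014. The labels do not say that same-numbered libraries were pairs. In the test of a difference between this contrast and F over AL at 22 h, none of the 9 was called (0.885% of all tested genes were). There were 0 at an unadjusted p under 0.05 by edgeR and 0 called by DESeq2. The differences had wide errors, such as -1.61 ± 2.18 for Ppp1r3g and 0.67 ± 0.81 for Ppp1r3c, so the test cannot show that the 2 effects were alike.

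Of the 28 other glycogen genes, 6 were called after the missed meal, 2 higher and 4 lower, beside 12.5% of all tested genes. Nhlrc1, the ubiquitin ligase malin of glycogen quality control, averaged 0.946 ± 0.402 CPM in CRmm and 3.64 ± 0.768 CPM in CRfed livers (SD, n = 3 each; -1.93 ± 0.38, adjusted p = 0.00128). Pygm, the muscle phosphorylase, was lower (-1.71 ± 0.54, adjusted p = 0.0345), as was Gys1 (-0.83 ± 0.28, adjusted p = 0.0478). The 5 skeletal muscle markers summed to 0.827 to 1.70 CPM in CRmm and 1.64 to 218 CPM in CRfed livers, highest in CRfed 1. The 4 adipocyte markers summed to at most 0.243 CPM in CRmm, where Adipoq and Lep were at 0, and to at most 33.5 CPM in CRfed livers. The 6 endothelial markers summed to 172 to 195 CPM in CRmm and 104 to 124 CPM in CRfed livers, and the 6 stellate markers to 273 to 342 CPM in CRmm and 204 to 227 CPM in CRfed livers. The 3 red blood cell markers summed to 3133 to 9775 CPM in CRmm and 580 to 1440 CPM in CRfed livers. The clock genes of all 3 CRfed libraries were nearer to another group than to their own, and those of the 3 CRmm libraries were nearest to their own. The part of these cell types and of the clock in the results after the missed meal was not tested.

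**Figure D4:**
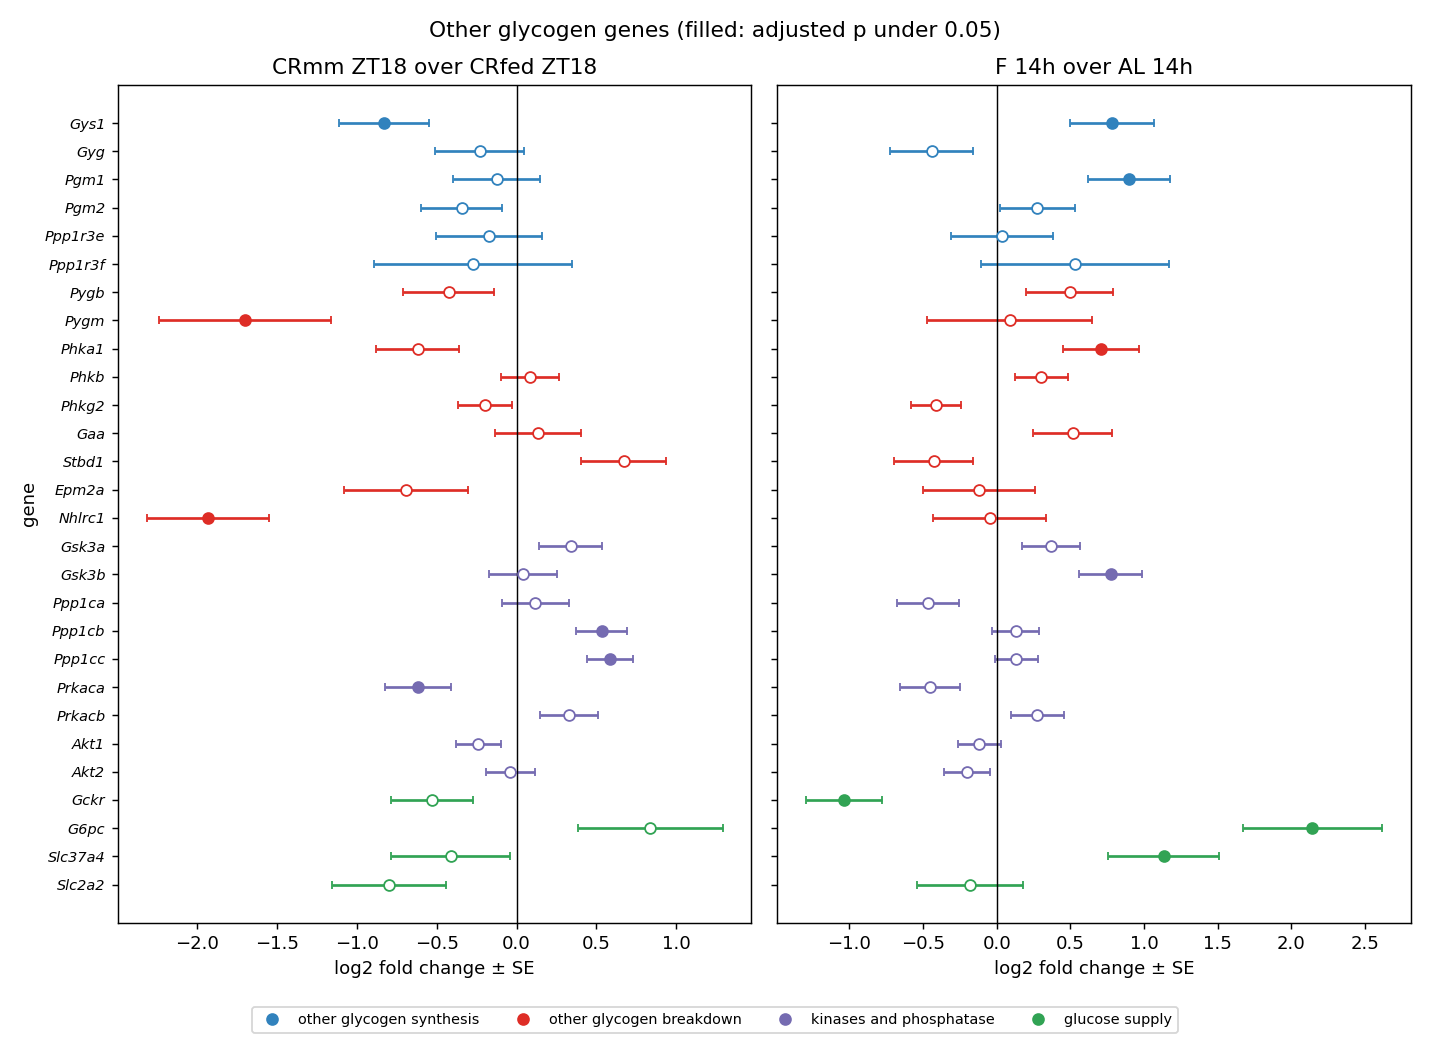
Points are log2 fold changes with SE bars of 28 other glycogen genes for CRmm over CRfed (left) and F over AL at 14 h (right), coloured by list and filled where the adjusted p is under 0.05. Gys1 is at -0.83 on the left and 0.78 on the right, and G6pc at 0.84 on the left and 2.14 on the right.

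**Figure D5:**
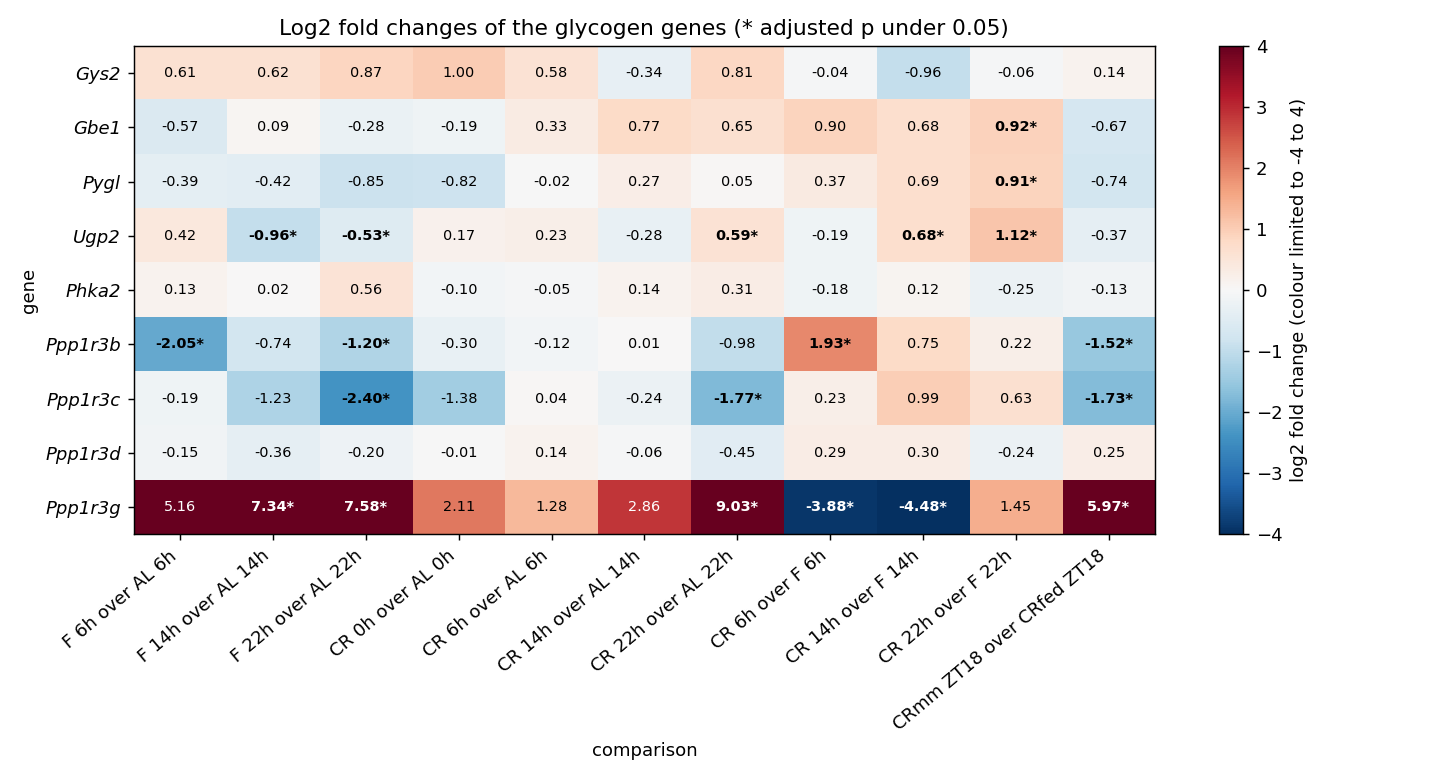
Each cell gives the log2 fold change of 1 gene (down) in 1 comparison (across), bold with a star where the adjusted p is under 0.05. A star marks 20 of the 99 cells, of which 6 are in the row of Ppp1r3g, 5 in that of Ugp2 and 0 in those of Gys2, Phka2 and Ppp1r3d.

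Within a diet, the times were compared to ask which transcripts changed over the labelled hours. For F livers, the labels do not tell time of day from length of the fast. In CR livers, 5 of 9 genes changed over 0, 6, 14 and 22 h (20.6% of all tested genes). These were Ppp1r3g (adjusted p = 0.000112), Ppp1r3c (0.00194), Gys2 (0.00461), Ppp1r3b (0.0135) and Ugp2 (0.0170). Without the 4 libraries apart from their diet, 3 were called (Ppp1r3b, Ppp1r3c and Ppp1r3g). Gys2 averaged 217 ± 17.3 CPM at 0 h (SD, n = 2), 102 ± 25.1 CPM at 6 h (SD, n = 3), 88.4 ± 13.2 CPM at 14 h (SD, n = 3) and 223 ± 34.9 CPM at 22 h (SD, n = 4). Ppp1r3c averaged 154 ± 47.3 CPM at 6 h (SD, n = 3) and 20.5 ± 3.70 CPM at 22 h (SD, n = 4). In F livers 1 of 9 changed over 6, 14 and 22 h (2.86%), Ppp1r3c (adjusted p = 0.00331), at 131 ± 18.3, 29.7 ± 23.1 and 13.2 ± 8.13 CPM (SD, n = 3 each). In AL livers 0 of 9 changed (0.276%) by edgeR, with 2 at an unadjusted p under 0.05 and 2 called by DESeq2, Ugp2 and Ppp1r3b. Without the 2 libraries of a deviant clock, 3 of 9 were called in AL livers: Ugp2, Ppp1r3b and Ppp1r3c. These 2 were picked by their distance from their own time group, so leaving them out favours calls over time. Whether a change over time differed between diets was tested for F against AL and CR against F, above.

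Across the 13 group means of log2 CPM, the 3 genes most like each of the 9 were sought among 9052 genes. The most alike were Sema4a, Scd1 and Slc17a4 for Pygl (Pearson's r 0.98, 0.971 and 0.96), Tbc1d8, Txnip and Tmx4 for Ppp1r3g (0.962, 0.942 and 0.941) and Smarcal1, Avpr1a and Chka for Ppp1r3c (0.949, 0.919 and 0.916). Nrg4, Per1 and Cdv3 were most like Gys2 (0.944, 0.938 and 0.935), Ctnnbip1, Otud1 and Tkt most like Gbe1 (0.944, 0.906 and 0.897), and Kng1, Kng2 and BC024139 most like Ugp2 (0.918, 0.898 and 0.891). Fam172a, Ankzf1 and Sbf2 were most like Phka2 (0.913, 0.907 and 0.905), Nfic, Fmo1 and Tbkbp1 most like Ppp1r3b (0.9, 0.891 and 0.873), and Cables2, Slc47a1 and Triobp most like Ppp1r3d (0.76, 0.709 and 0.689). Among the 9 genes, Ppp1r3c and Pygl had the highest r (0.847) and Gys2 and Pygl the lowest (-0.802). These values describe 13 points, which share libraries' depth and normalisation between genes, and carry no test.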

How the data were processed

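RNA from the livers of female mice was sequenced in 38 libraries. Per the labels' protocols, libraries were non-directional, from polyadenylated RNA, with paired-end reads. Bowtie placed the reads on protein-coding Ensembl genes of GRCm38 with up to 2 mismatches. One deposited table holds expected counts, which the authors estimated with RSEM 1.2.3. Another deposited table holds a signal called rescaled TPM here, made by the authors from TPM with EBSeq, per the labels. A batch effect is mentioned as possible in the labels, but no batch is named.

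Expected counts were rounded to whole numbers, 13786 of 21954 genes were kept by filterByExpr, and libraries were scaled by TMM. All 38 libraries were fitted at once in edgeR 4.0.16 (R 4.3.3), 1 coefficient per group for 13 groups. The quasi-likelihood F test was used, with Benjamini-Hochberg adjustment over all tested genes and a threshold of 0.05. Counts at an unadjusted p under 0.05 are given without the share over all tested genes. They therefore show nothing particular to the genes counted. CPM are counts scaled by the TMM-adjusted library size. The standard error of a fold change, given after the ± sign, is its size divided by the square root of F. Gene coordinates and exon overlaps came from GENCODE vM21 on GRCm38, and promoter sequences from RefSeq on GRCm38.p6. The scripts were tested on simulated counts with known changes.

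Other settings were the test of DESeq2 1.42.0, its size factors in edgeR, all genes with at least 1 read, a replicate block, the compared libraries alone, limma 3.58.1 on rescaled TPM (log2 of the value plus a pseudocount of 1 or 0.1), and leaving out each library. Settings chosen after seeing the data left out 2 libraries of a deviant clock, 4 apart from their diet or these 6, removed the trend with transcript length, or combined the block with the compared libraries alone. The 2 and the 4 were picked by expression in these same data. Calls gained without them in comparisons of their groups are therefore partly fixed by that choice. Deviations of same-numbered CRmm and CRfed libraries from their group means correlated at 0.144, 0.2 and 0.15. The block on these libraries alone was tried for that reason, a choice made from these same data. Same-numbered CR_22h and F_22h libraries gave 0.171, 0.03 and 0.161 and were not treated so. Different-numbered libraries were not correlated for reference, and the labels name no pairs. These values therefore do not establish that the samples were paired.

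The 9 genes, the lists of other glycogen genes and the marker lists were chosen with earlier results of these data known. All 9 were described. Among other glycogen genes, the rule named at most the 4 called genes with the largest fold change and a mean of at least 1 CPM in a group and allowed G6pc anywhere. Some genes of these lists are not reported here, and counts of the lists leave them out. Where reads carry no molecular identifier, counting error is a lower limit of the error. Ages in the labels were not used.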

Additional observations from a re-analysis of the deposited data

Results flagged for a closer look

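In CR_22h, the one group of 4 libraries, 2 of the 9 genes had a library far from the others. Ppp1r3g was at 121 CPM in CR_22h 4 and at 9.48 to 20.3 CPM in the other libraries, a gap of 0.903 of the whole range, past Dixon's critical value at the 95% level. Ppp1r3c was at 26.0 CPM in CR_22h 3 and at 18.0 to 19.2 CPM in the others, a gap of 0.857. Chance flags about 1 in 20 such groups, and 9 genes were looked at. CR_22h 4 had the fewest counts of all libraries (17131292). It also correlated better with F (mean r 0.1) than with its own diet (-0.009), and its clock genes were nearest to F_22h. CR_22h 3 correlated better with AL (mean r 0.126) than with its own diet (-0.042). The part of these traits in the outlying values was not tested.

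The CR over F effect differed across 6, 14 and 22 h for Ugp2 (adjusted p = 0.0076) and Ppp1r3g (adjusted p = 0.0212). The Ugp2 differences were -0.19, 0.68 and 1.12 and those of Ppp1r3g -3.88, -4.48 and 1.45, at 6, 14 and 22 h. The Ppp1r3g result was lost without CR_22h 4 or F_22h 2.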

How the results depend on the processing

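Of 99 gene-by-pair results, 20 were called and 7 of these were called in every setting; 0 of the 20 changed sign. The number of the 9 genes called moved by over 1.5 times as follows, and its other moves were of 1 gene. For F over AL at 6 h (1), it was 2 with no filter, by DESeq2, with the replicate block, on the compared libraries only, by limma with a pseudocount of 0.1 and without the 4 libraries apart from their diet. For F over AL at 22 h (4), it was 2 by limma without a filter and without the 2 libraries of a deviant clock. For CR over AL at 14 h (0), it was 1 without the 4 or these 6 libraries, and at 22 h (3) it was 1 on the compared libraries only. For CR over F it was 1 at 6 h (2) by limma with a pseudocount of 1, filtered or not. At 14 h (2) it was 4 with the replicate block and 1 by limma without a filter, and at 22 h (3) 1 on the compared libraries only. For CRmm over CRfed (3), it was 5 with the replicate block on the compared libraries only and 5 without the 4 libraries. Over time in CR livers (5) it was 3 without the 4 libraries. In F livers (1) it was 2 by DESeq2, with the replicate block and without the 4 or 6 libraries, and 3 on the compared libraries only. In AL livers (0) it was 2 by DESeq2, 1 by limma with either pseudocount and 3 without the 2 or 6 libraries. For F over AL across times (0), it was 1 by DESeq2, by limma without a filter and without the 2, 4 or 6 libraries. For CR over F across times (2), it was 1 by limma with a pseudocount of 1, filtered or not. The cause was not tested.

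With 1 library left out, the count lay between 0 and 1 for F over AL at 6 h, 1 and 5 at 22 h, 0 and 1 for CR over AL at 14 h and 1 and 3 at 22 h. It lay between 1 and 2 for CR over F at 6 h, 1 and 3 at 14 h, 1 and 3 at 22 h, and 1 and 3 for CRmm over CRfed. It lay between 0 and 2 over time in AL livers, 0 and 1 for F over AL across times and 1 and 2 for CR over F across times. Where a group of 2 lost a library, the lone sample was assumed to vary like the other groups. Ppp1r3c in CR over AL at 22 h was called in 6 of 19 settings (adjusted p 0.0323 to 0.835) and Ugp2 in F over AL at 22 h in 7 of 18 (0.0266 to 0.223). Ppp1r3b in CRmm over CRfed lost its call without CRmm 3.

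Counts over all genes moved too. F over AL at 6 h called 322 genes, but 563 by DESeq2, 581 with the block and 828 on the compared libraries only. CR over AL called 66 genes at 0 h, against 16 on the compared libraries only and 405 without the 4 libraries, 0 at 6 h, against 105 without the 6, 3 at 14 h, against 679 without the 6, and 673 at 22 h, against 83 on the compared libraries only and 2028 without the 4. CR over F called 2354 at 14 h and 1302 at 22 h, against 1357 and 260 on the compared libraries only. CRmm over CRfed called 1719, against 3014 with the block on the compared libraries only. Over time, 2839 genes were called in CR livers, against 1124 on the compared libraries only, 394 in F livers, against 867 without the 6, and 38 in AL livers, against 2 on the compared libraries only and 507 without the 2. Across times, F over AL called 9, against 2 by limma and 82 without the 6, and CR over F called 390, against 192 on the compared libraries only and 796 without the 6. The missed-meal effect against F over AL at 22 h called 122, against 71 with the length trend removed and 336 without the 4.

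Whether same-numbered libraries were pairs is not known. Over all 30 numbered pairs, CRmm and CRfed among them, the correlation of their deviations ran from -0.196 to 0.2, with 8 over 0.1. Low counts limit Ppp1r3d everywhere and Ppp1r3g in AL and CRfed livers.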
